A study of Homo sapiens with 24 samples.

Results

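The HOX genes encode homeodomain transcription factors and lie in 4 clusters in the human genome. They were taken from the table of gene counts as every protein-coding row whose symbol is HOX followed by a cluster letter from A to D and a number. The rule used gene names and the protein-coding label, not measured values, and 38 of its genes, in a table of 58735, are described: 10 in HOXA on chromosome 7, 10 in HOXB on chromosome 17, 9 in HOXC on chromosome 12 and 9 in HOXD on chromosome 2. A noncoding row that also carries the name HOXC5 fell outside the rule.

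The cells were OCI-Ly18 and SU-DHL-4, established cell lines of diffuse large B cell lymphoma that carried GFP. They grew for 72 h with 500 nM tazemetostat or its solvent DMSO and then, with the same compound present, for 48 h beside CART19 cells or UTD cells. The viable GFP-positive cells were sorted, and their total RNA was sequenced in bulk. Tazemetostat is an inhibitor of EZH2, CART19 cells are T cells with a chimeric antigen receptor, and UTD is not spelled out in the labels. In each line the 4 groups were therefore DMSO with UTD cells, tazemetostat with UTD cells, DMSO with CART19 cells and tazemetostat with CART19 cells. Each had 3 libraries, 24 in all, and every group had a co-culture, so none shows the lines alone. Nothing says that the 3 libraries of a group came from separate cultures, so the p-values measure the spread between these libraries, which may be technical.

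HOX proteins set position along the body axis in the embryo. Within a cluster the gene number follows the order of the genes on the chromosome, with low numbers acting toward the head and high numbers toward the tail, limbs and genitalia. In blood, several HOX genes of the A, B and C clusters are active in stem and progenitor cells and fall as cells mature, while HOXC4 is also known from mature B cells. EZH2 is the catalytic subunit of PRC2, which methylates histone H3 on silent genes, and the HOX clusters are among the classical targets of PRC2. HOX proteins bind DNA together with cofactors of the TALE class, the PBX and MEIS proteins, and the Trithorax proteins act on the same clusters in the opposite direction to PRC2.

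Total counts ran from 14783781 to 20148891 per library with a median of 16583438. Levels are given as CPM, the count scaled to a library total of 1000000, and 1 count in the smallest library was worth 0.0676 CPM. All 7 B cell marker genes summed had counts in every group, with a summed level of 2646 to 2985 CPM per library in OCI-Ly18 and 3969 to 4758 CPM in SU-DHL-4. Of 14 T cell markers, 2 to 9 were at 0 in a group. CD7 was at 0 in all 8 groups, CD3G in 5 and CD2 in 5. In OCI-Ly18, with DMSO and tazemetostat in that order, 7 and 9 were at 0 beside UTD cells and 3 and 2 beside CART19 cells. CD3D, CD2, GZMB and IFNG were at 0 in both UTD groups of this line and had counts in both CART19 groups, while the sums were lower there. In SU-DHL-4 the markers at 0 were 9 and 5 beside UTD cells and 6 and 4 beside CART19 cells. The summed T cell markers ran from 212.1 to 227.5 CPM with DMSO and UTD cells in OCI-Ly18 and from 287.6 to 300.6 with tazemetostat and UTD cells. With CART19 cells they ran from 120.1 to 131 CPM with DMSO and from 162.9 to 175.4 with tazemetostat. In the group with the highest sums, tazemetostat with UTD cells, CD3D, CD3E and CD3G were all at 0, so other markers of the list made up the sums. In SU-DHL-4 the same sums were 43.9 to 44.4, 27.8 to 30.1, 42.7 to 44.98 and 25.8 to 26.7 CPM. The 6 myeloid markers summed to at most 1.68 CPM in any library. The part of these other cells in the HOX counts was not tested; in a bulk sample, fewer cells of a type and less RNA per cell cannot be told apart.

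Most HOX genes were silent or nearly so, and what was left differed between the lines. A count was found for 25 of the 38 genes in OCI-Ly18 and for 20 in SU-DHL-4, and 7 genes had none in any of the 24 libraries: HOXB1, HOXB5, HOXB6, HOXB13, HOXC5, HOXD1 and HOXD4. HOXC5, HOXD1 and HOXD4 share 59.9%, 58.1% and 80.5% of their exon bases with other genes, so reads there may have been assigned elsewhere or left out. A total of 0 counts over the 3 libraries of a group allows up to 3 counts, which is between 0.0546 and 0.0623 CPM depending on the group; this limit covers counting error only. A mean of 1 CPM or more in some group was reached by 10 genes in OCI-Ly18 and 11 in SU-DHL-4, 14 genes over both lines. In OCI-Ly18 these were HOXA3, HOXA4, HOXA5, HOXA6, HOXA10, HOXA13, HOXB7, HOXB9, HOXC4 and HOXD13, and in SU-DHL-4 HOXA2 to HOXA7, HOXA13, HOXB3, HOXB4, HOXB7 and HOXC4.

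HOXC4 stood first in both lines when levels were compared per length, as CPM per kilobase of exon. Its mean over the 12 libraries of OCI-Ly18 was 6.71 CPM per kilobase, with a lowest library of 4.98 and a highest of 8.97; in SU-DHL-4 it was 8.50, from 6.002 to 11.2. In OCI-Ly18 HOXB7 followed at 4.06 (3.16 to 6.38), then HOXA5 at 1.91 (1.45 to 3.04) and HOXB9 at 0.946 (0.385 to 1.54) CPM per kilobase. In that order the ranges over 12 libraries of neighbouring genes overlapped except those of HOXB7 and HOXA5. With DMSO and UTD cells alone HOXC4 (4.98 to 5.71) was apart from HOXB7 (3.52 to 4.22). HOXA5 (1.65 to 1.85) was there apart from HOXB9 (0.52 to 0.784). HOXC4 and HOXB7 overlapped with tazemetostat and UTD cells, and HOXA5 and HOXB9 with tazemetostat and CART19 cells. In SU-DHL-4 HOXB4 came below HOXC4 at 2.97 (2.38 to 3.68), then HOXA5 at 2.69 (1.77 to 3.36), HOXA7 at 2.26 (1.81 to 2.96) and HOXA3 at 1.62 (1.24 to 2.13) CPM per kilobase. There HOXC4 was apart from HOXB4, and the later neighbours in the order given overlapped. The ranges over 12 libraries span all 4 groups of a line and so hold the treatment differences given further on.

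**Figure D1:**
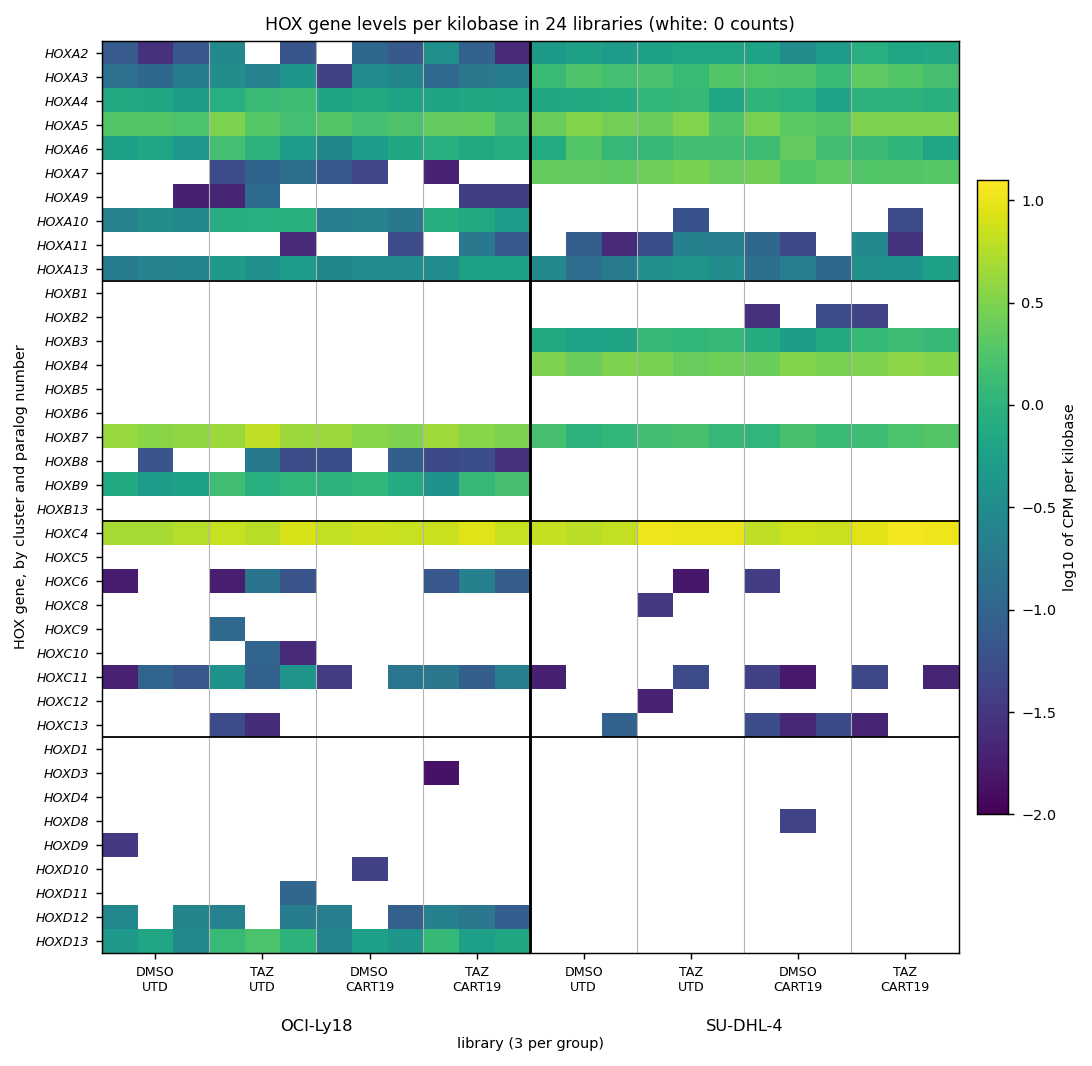
Levels of the 38 HOX genes (rows, by cluster and gene number) in the 24 libraries (columns, 3 per group), as the log10 of CPM per kilobase, with white for 0 counts. HOXC4 is bright in every column, HOXB3, HOXB4 and HOXA7 stand out in SU-DHL-4, and HOXA10, HOXB9 and HOXD13 in OCI-Ly18.

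With DMSO and UTD cells the lines differed most at HOXB3, HOXB4 and HOXA7, which were on in SU-DHL-4, and at HOXA10, HOXB9 and HOXD13, which were on in OCI-Ly18. HOXB4, a gene known for expanding blood stem cells, had 0 counts in all 12 libraries of OCI-Ly18 and 194, 141 and 214 counts in the 3 SU-DHL-4 libraries. With 3 counts in place of the 0 over the group it was at least 177-fold higher. Its neighbour HOXB3, a gene of hindbrain patterning, was also without a count in OCI-Ly18, while SU-DHL-4 had 94, 70 and 88, at least 81.2-fold higher. HOXB3 and HOXB4 share some exon bases on one strand, so part of their reads could be assigned to either. Bases shared with any gene on either strand make up 13.2% of HOXB3 (with HOXB4, HOXB6, HOXB-AS1 and HOXB-AS3) and 17.1% of HOXB4 (with HOXB3, AC103702.1 and MIR10A). HOXA7 had 0 counts in these 3 OCI-Ly18 libraries and 93, 83 and 95 in SU-DHL-4, at least 87.4-fold higher. Of its exon bases 62.5% lie opposite the antisense gene HOXA-AS3, and since no source used here says whether the counting kept the strand, the 2 genes' reads cannot be told apart there.

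In the other direction HOXB9, a gene of the thoracic skeleton, had 32, 20 and 27 counts in OCI-Ly18 and none in any SU-DHL-4 library, at least 27.2-fold lower in SU-DHL-4. HOXA10, which is active in blood progenitors and in the uterus, had 14, 19 and 19 counts against 0, at least 17.9-fold lower. HOXD13, a gene of digit formation, had 17, 22 and 12 counts against 0, at least 17.6-fold lower. HOXD12, its neighbour, had 6, 0 and 6 counts against 0, at least 4.14-fold lower, with 1 of the 3 OCI-Ly18 libraries at 0 as well. The whole HOXD cluster gave 2 counts in the 12 SU-DHL-4 libraries, both from HOXD8 in 1 library with DMSO and CART19 cells.

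Over all 24 libraries 15 HOX genes passed the filter on low counts, a selection that favours genes that are high in some group. Of the 17766 genes tested across the lines edgeR called 64.8% at an adjusted p under 0.05, 29% raised and 35.9% lowered in SU-DHL-4. Of the 15 HOX genes 12 were called, 8 higher and 4 lower in SU-DHL-4, and with a background this high the count does not set them apart. Beside the genes at 0 in one line, HOXA3 was higher in SU-DHL-4 by 3.38 ± 0.35 (edgeR adjusted p = 1.69e-11) on the log2 scale. HOXA2 was higher by 3.20 ± 0.77 (edgeR adjusted p = 0.00031). HOXC4 was higher by 0.39 ± 0.12 (edgeR adjusted p = 0.00531), a difference that upper quartile scaling moved to the other side of the threshold (adjusted p = 0.0767). HOXA5 was higher by 0.78 ± 0.26 (edgeR adjusted p = 0.0088) and HOXA6 by 1.22 ± 0.45 (edgeR adjusted p = 0.0169). Without the second SU-DHL-4 library of DMSO with UTD cells the edgeR adjusted p was 0.0522 for HOXA5 and 0.131 for HOXA6. It was 0.0649 for HOXA6 without the third OCI-Ly18 library of that group. HOXB7 was lower in SU-DHL-4, with a log2 difference of -1.56 ± 0.25 (edgeR adjusted p = 5.96e-07). HOXA13 gave -0.04 ± 0.39 (edgeR adjusted p = 0.94), HOXA4 0.29 ± 0.38 (edgeR adjusted p = 0.517) and HOXC11 -2.90 ± 1.46 (edgeR adjusted p = 0.0785); none of these 3 passed.

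Summed over the genes described in a cluster, the mean level with tazemetostat lay above that with DMSO in both lines for every cluster except HOXD of SU-DHL-4, which was near 0 throughout. In OCI-Ly18 with UTD cells HOXA went from a mean of 8.01 ± 0.294 (SD, n = 3) to 14.7 ± 1.6 CPM and HOXB from 7.58 ± 0.826 to 10.7 ± 1.56. HOXC went from 14.5 ± 1.12 to 20.5 ± 3.41 and HOXD from 1.34 ± 0.269 to 3.19 ± 0.458 CPM. With CART19 cells the same sums were 8.24 ± 0.935 and 12.3 ± 1.37 for HOXA and 8.24 ± 1.01 and 8.48 ± 0.444 for HOXB. They were 19.1 ± 1.01 and 21.97 ± 3.1 for HOXC, and 1.11 ± 0.265 and 2.08 ± 0.828 CPM for HOXD. The HOXB means with CART19 cells differed by less than the larger of their SDs. In SU-DHL-4 with UTD cells HOXA went from 22.3 ± 2.34 to 24.7 ± 1.51, HOXB from 17.9 ± 2.24 to 20.8 ± 1.15 and HOXC from 17.6 ± 1.14 to 28.2 ± 0.156 CPM. With CART19 cells they went from 21.97 ± 3.26 to 25.3 ± 1.65, from 18.3 ± 0.911 to 24.6 ± 1.56 and from 19.2 ± 1.37 to 28.01 ± 2.93 CPM. In SU-DHL-4 the HOXA sums overlapped between tazemetostat and DMSO in both co-cultures and the HOXB sums with UTD cells. No test was made on these sums, which follow their most abundant genes: HOXC4 made up most of HOXC in both lines.

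**Figure D2:**
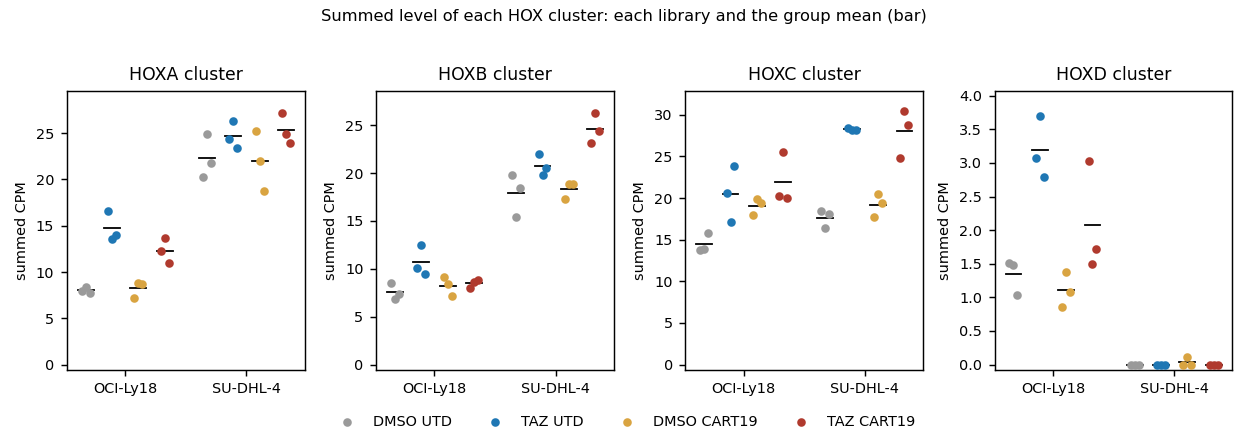
Summed CPM of the genes described in each HOX cluster, one panel per cluster, with a point per library and a bar at the mean of the 3 libraries of a group. With UTD cells the HOXC points with tazemetostat lie above those with DMSO in both lines and the HOXA points in OCI-Ly18, and HOXD is near 0 throughout SU-DHL-4.

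In OCI-Ly18 with UTD cells 3 of the 11 tested HOX genes rose with tazemetostat and none fell: HOXA10, HOXD13 and HOXC4. Over all 16467 genes tested in this line edgeR called 24.3% at an adjusted p under 0.05, with 11.6% raised and 12.7% lowered. The 3 of 11, or 27.3%, are close to the share called in either direction and above the share raised. With 11 genes tested this says nothing about HOX genes as a class. All 11 fitted changes were above 0, with a median of 0.78 on the log2 scale beside 0.02 over all genes tested. But these 11 had passed a filter that favours genes high in some group, and HOXC11 passed it through tazemetostat libraries alone.

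The promoters of the 2 genes with the largest called changes in OCI-Ly18 are shown with their CG pairs in capitals, since CG-rich start regions are where PRC2 is known to act in mammals. Each is the 250 bases before a RefSeq start of the gene on its own strand, from the RefSeq table of build GRCh38.p14: chr7:27179862-27180111 on the minus strand for HOXA10 and chr2:176092471-176092720 on the plus strand for HOXD13.
HOXA10: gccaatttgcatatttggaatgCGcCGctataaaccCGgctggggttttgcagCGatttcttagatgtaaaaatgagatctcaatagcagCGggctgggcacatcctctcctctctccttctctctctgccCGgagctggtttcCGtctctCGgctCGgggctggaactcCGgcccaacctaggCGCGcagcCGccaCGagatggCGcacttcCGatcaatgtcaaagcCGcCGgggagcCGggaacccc
HOXD13: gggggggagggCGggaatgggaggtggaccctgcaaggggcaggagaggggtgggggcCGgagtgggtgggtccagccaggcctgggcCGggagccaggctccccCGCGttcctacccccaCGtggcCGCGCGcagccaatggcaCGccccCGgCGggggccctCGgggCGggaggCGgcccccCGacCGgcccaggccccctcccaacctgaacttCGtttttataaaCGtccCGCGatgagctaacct
The HOXA10 window shown holds 19 CG pairs and has a GC content of 58.8%, and the HOXD13 window holds 21 and 74.0%; the median over the 35116 promoters of the table was 11 CG pairs and 58.0%. Both windows contain TATAAA, HOXA10's on the gene's strand and HOXD13's on both, and both contain CCAAT on the gene's strand; on either strand these are found in 10.7% and 32.0% of all promoters. The table also gives HOXA10 a second start, whose window, chr7:27174321-27174570, is not printed: it holds 24 CG pairs, has a GC content of 65.2%, and has TATAAA and CCAAT on the opposite strand alone. A match of letters is a description of the window and not a binding site.

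HOXA10 lies at chr7:27170591-27180261 on the minus strand of hg38, between HOXA9 and HOXA11. It had 14, 19 and 19 counts with DMSO and UTD cells and 49, 56 and 61 with tazemetostat and UTD cells. With CART19 cells it had 14, 16 and 11 counts with DMSO and 63, 50 and 33 with tazemetostat. Every tazemetostat library was above every DMSO library. The mean level went from 1.08 ± 0.195 to 3.31 ± 0.149 CPM with UTD cells and from 0.781 ± 0.112 to 2.63 ± 0.649 CPM with CART19 cells (SD, n = 3). The log2 changes were 1.55 ± 0.34 (edgeR adjusted p = 0.000817) and 1.72 ± 0.35 (edgeR adjusted p = 0.000445). These calls held in all the alternatives run, with adjusted p up to 0.0210 and 0.0134. Of its exon bases 26.3% are shared with HOXA10-AS and AC004080.3, and both had 0 counts in all 24 libraries. In SU-DHL-4 HOXA10 had 4 counts in 1 of 3 libraries with tazemetostat and UTD cells, 3 counts in 1 of 3 with tazemetostat and CART19 cells, and 0 in all 6 DMSO libraries, which is too little to compare.

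HOXD13, the last gene of HOXD, lies at chr2:176092891-176095938 on the plus strand and shares no exon base with another gene. It had 17, 22 and 12 counts with DMSO and UTD cells and 43, 61 and 41 with tazemetostat, without overlap of the groups in CPM. The mean went from 1.08 ± 0.395 to 2.91 ± 0.713 CPM, a log2 change of 1.38 ± 0.40 (edgeR adjusted p = 0.0103). The adjusted p was 0.0718 without the third DMSO library of this comparison and 0.0672 without the second tazemetostat library. With CART19 cells it had 10, 23 and 16 counts with DMSO and 54, 22 and 28 with tazemetostat, groups that overlapped, with a log2 difference of 0.96 ± 0.41 (edgeR adjusted p = 0.0918) that did not pass. Without the second tazemetostat library with CART19 cells HOXD13 was called there too, which made 2 called HOX genes in place of 1. HOXD12 next to it had 5, 0 and 5 counts with tazemetostat and UTD cells beside 6, 0 and 6 with DMSO, too few to pass the filter.

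HOXC4, which in mouse B cells is known to act on the promoter of the antibody-mutating enzyme AID, had 13.7, 13.6 and 15.5 CPM with DMSO and UTD cells in OCI-Ly18 and 18.98, 15.9 and 22.3 CPM with tazemetostat. The groups did not overlap, but the change was small, 0.36 ± 0.13 (edgeR adjusted p = 0.0446) on the log2 scale. This call was lost without a filter on low counts (adjusted p = 0.0519), with limma voom (0.0706), with the replicate block (0.0600) and in 7 of the 12 fits that left out 1 library, the highest adjusted p being 0.297 without the third tazemetostat library. With CART19 cells HOXC4 had 17.8, 19.8 and 18.9 CPM with DMSO and 19.5, 24.5 and 19.1 with tazemetostat, groups that overlapped, and gave 0.13 ± 0.13 (edgeR adjusted p = 0.513). HOXC4 shares 17.8% of its exon bases with HOXC5 and HOXC6, which had 0 and 42 counts over all libraries beside 8396 for HOXC4.

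**Figure D3:**
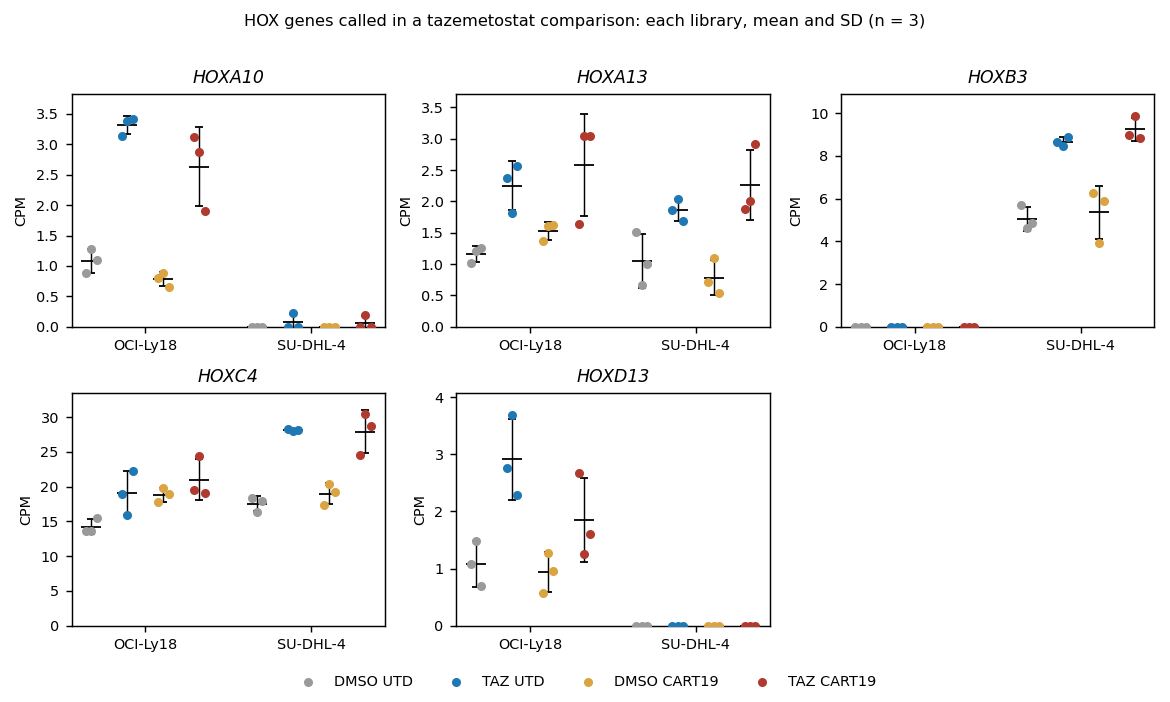
CPM of the 5 HOX genes called in a tazemetostat comparison, a point per library, with the mean and SD of the 3 libraries of each group and both lines side by side. HOXA10 and HOXD13 have points above 0 mainly in OCI-Ly18, HOXB3 has them in SU-DHL-4 alone, and the HOXC4 points of SU-DHL-4 with tazemetostat lie above those with DMSO.

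The other 8 genes tested in OCI-Ly18 did not pass with UTD cells. HOXA13, the last gene of HOXA and a gene of limb and genital development, had 16, 18 and 22 counts with DMSO and 37, 30 and 46 with tazemetostat, groups that did not overlap in CPM. The log2 difference was 0.89 ± 0.35 (edgeR adjusted p = 0.0653). HOXA13 with CART19 cells had 24, 29 and 27 and 33, 53 and 53 counts and gave 0.72 ± 0.34 (edgeR adjusted p = 0.134). HOXC11, a gene of the lumbar and hindlimb region, had 1, 5 and 4 counts with DMSO and 20, 5 and 24 with tazemetostat, where 1 tazemetostat library was level with the DMSO libraries. It gave 2.13 ± 0.84 (edgeR adjusted p = 0.0615). Over both co-cultures its 3 highest libraries, at 1.34, 1.28 and 0.69 CPM, were with tazemetostat, and its highest DMSO library was at 0.541. HOXC11 thus passed the filter on low counts through the tazemetostat libraries, where it is high. HOXB9 had 32, 20 and 27 counts with DMSO and 56, 39 and 52 with tazemetostat and gave 0.78 ± 0.37 (edgeR adjusted p = 0.125). HOXB9 with CART19 cells had 44, 53 and 35 and 20, 53 and 69 counts, a spread within the tazemetostat group that took in the DMSO group.

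The remaining HOXA genes of OCI-Ly18 and HOXB7 also failed the test in both co-cultures. HOXA3, which in mouse is needed for thymus and parathyroid, had 0.632, 0.47 and 0.86 CPM with DMSO and 1.47, 1.03 and 1.85 with tazemetostat beside UTD cells. HOXA3 beside CART19 cells had 0.171, 1.38 and 1.14 CPM with DMSO and 0.496, 0.746 and 0.862 with tazemetostat. Its DMSO and tazemetostat libraries were apart with UTD cells (1.07 ± 0.56 (edgeR adjusted p = 0.175)) and overlapped with CART19 cells (-0.39 ± 0.57 (edgeR adjusted p = 0.689)). HOXA4 had 1.33, 1.28 and 0.918 CPM with DMSO and 1.54, 2.18 and 2.4 with tazemetostat beside UTD cells. HOXA4 beside CART19 cells had 1.14, 1.38 and 1.14 CPM with DMSO and 1.14, 1.26 and 1.21 with tazemetostat. This gave log2 differences of 0.74 ± 0.39 and -0.05 ± 0.39 for tazemetostat with UTD and CART19 cells (edgeR adjusted p = 0.171 and 0.955). HOXA5, a gene of lung and axial development in mouse, had 3.16, 3.16 and 2.81 CPM with DMSO and 5.19, 3.27 and 2.57 with tazemetostat beside UTD cells. HOXA5 beside CART19 cells had 3.18, 2.54 and 2.95 CPM with DMSO and 3.82, 4.02 and 2.47 with tazemetostat. The groups overlapped in both co-cultures. HOXA6 had 0.759, 0.873 and 0.574 CPM with DMSO and 1.92, 1.27 and 0.671 with tazemetostat beside UTD cells. HOXA6 beside CART19 cells had 0.341, 0.663 and 0.902 CPM with DMSO and 1.14, 0.976 and 1.09 with tazemetostat. The groups overlapped with UTD cells and were apart with CART19 cells (0.73 ± 0.52 (edgeR adjusted p = 0.362)). HOXB7, the second in the order per length, had 6.45, 5.37 and 5.85 CPM with DMSO and 6.54, 9.74 and 6.49 with tazemetostat beside UTD cells. HOXB7 beside CART19 cells had 6.54, 5.47 and 4.87 CPM with DMSO and 6.9, 5.45 and 4.83 with tazemetostat. Tazemetostat libraries were just above DMSO libraries with UTD cells, and the second library of tazemetostat with UTD cells was above the others. HOXA3, HOXA4 and HOXA6 share 17.9%, 47.3% and 40.1% of their exon bases with other genes on either strand, among them HOXA-AS2 and HOXA-AS3.

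The HOX genes too low for the test in OCI-Ly18 had few counts in any group, some of them more with tazemetostat. HOXC6 had 1, 0 and 0 counts with DMSO and UTD cells and 1, 9 and 4 with tazemetostat, a ratio of 13.5 with an exact 95% counting interval from 2.05 to 570. With CART19 cells it had 0 counts in the 3 DMSO libraries and 5, 14 and 5 with tazemetostat, at least 7.61-fold higher. Without a filter on low counts edgeR called HOXC6 in the comparison with CART19 cells, beside HOXA10. HOXA7 had 0 counts in the 3 libraries of DMSO with UTD cells and 2, 4 and 6 with tazemetostat, at least 3.85-fold higher, and 3, 2 and 0 and then 1, 0 and 0 counts with CART19 cells. HOXA9, a gene of blood progenitors and leukaemia, had 0, 0 and 1 counts with DMSO and UTD cells and 1, 6 and 0 with tazemetostat, a ratio of 6.74 with an interval from 0.866 upward. HOXB8 had 0, 2 and 0 and 0, 6 and 2 counts in the same groups, and 2, 0 and 3 and 2, 2 and 1 with CART19 cells, a total of 5 in each. HOXA2 had 3, 1 and 3 and 11, 0 and 3 counts with UTD cells, and its tazemetostat libraries ranged on both sides of the DMSO ones. HOXA11 had 0 counts with DMSO and UTD cells, 0, 0 and 1 with tazemetostat and UTD cells, and 0, 0 and 2 and 0, 7 and 3 with CART19 cells. HOXC9, HOXC10, HOXC13, HOXD3, HOXD9, HOXD10 and HOXD11 had between 1 and 5 counts in all 12 libraries together. These intervals cover counting error only, not the spread between libraries.

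With CART19 cells 1 of the 11 tested HOX genes rose with tazemetostat in OCI-Ly18, HOXA10, beside 21.6% of all genes called (11% raised, 10.6% lowered). The median of the 11 log2 changes was 0.23 beside 0.01 over all genes, and 9 of the 11 were above 0. These are the same 11 genes, HOXC11 among them, passed by a filter that favours genes high in some group. The comparisons with UTD and with CART19 cells have no libraries in common. The interaction, which asks whether the change with tazemetostat differs between the co-cultures, called none of the 11 with edgeR beside 0.419% of all genes, none at an unadjusted p under 0.05, and none with DESeq2 or limma voom. In a fit of all 24 libraries the interaction called HOXA7.

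In SU-DHL-4 HOXC4 and HOXB3 rose with tazemetostat in both co-cultures, and HOXA13 rose with CART19 cells. With UTD cells 2 of 11 tested HOX genes were called, all raised, beside 35.5% of the 14861 genes tested (17.2% raised, 18.3% lowered). With CART19 cells 3 of 11 were called, all raised, beside 34.8% (16.1% raised, 18.7% lowered). As a share of the genes tested this was 18.2% and 27.3%. These lay below the share of all genes called in either direction and above the share raised, 17.2% and 16.1%. With 11 genes tested nothing about HOX genes as a class is read from these counts. The medians of the 11 log2 changes were 0.15 and 0.23, beside 0.01 and 0.00 over all genes.

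HOXC4 and HOXA13, called in SU-DHL-4, have quite different start regions, shown in the same way: chr12:54016638-54016887 on the plus strand for HOXC4, a window that the table gives for HOXC5 as well, and chr7:27200092-27200341 on the minus strand for HOXA13.
HOXC4: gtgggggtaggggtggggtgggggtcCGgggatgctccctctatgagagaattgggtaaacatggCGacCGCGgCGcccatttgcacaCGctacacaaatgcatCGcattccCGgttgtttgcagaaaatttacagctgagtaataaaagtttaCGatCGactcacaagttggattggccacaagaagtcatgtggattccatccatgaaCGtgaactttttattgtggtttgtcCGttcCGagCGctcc
HOXA13: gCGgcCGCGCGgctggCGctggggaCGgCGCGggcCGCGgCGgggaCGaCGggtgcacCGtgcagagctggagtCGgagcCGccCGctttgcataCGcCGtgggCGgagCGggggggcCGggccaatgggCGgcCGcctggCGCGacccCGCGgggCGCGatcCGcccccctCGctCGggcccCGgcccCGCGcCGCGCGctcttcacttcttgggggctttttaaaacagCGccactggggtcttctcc
The HOXC4 window holds 14 CG pairs and has a GC content of 50.8%, and the HOXA13 window holds 40 and 78.0%, as many as or more than 98.3% of all promoters. HOXC4 has CCAAT on the opposite strand and HOXA13 on its own strand, and neither has TATAAA. The pattern TGATNNAT, a form of the joint PBX and HOX motif that does not overlap the other 2 by its letters, was found in none of these 4 windows on either strand and in 6.47% of all promoters. At that share 4 windows are too few to read anything from its absence. Other HOX windows held it, HOXB1 on the gene's strand and HOXA2 and HOXD11 on the opposite strand. Promoters were in the table for 20 of the 38 HOX genes.

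HOXC4 lies at chr12:54016931-54056030 on the plus strand. In SU-DHL-4 it had 18.4, 16.4 and 17.9 CPM with DMSO and UTD cells and 28.3, 27.9 and 28.2 with tazemetostat. HOXC4 with CART19 cells had 17.3, 20.3 and 19.3 CPM with DMSO and 24.6, 30.5 and 28.7 with tazemetostat. The 6 tazemetostat libraries were all above the 6 DMSO libraries. The log2 changes were 0.60 ± 0.11 (edgeR adjusted p = 1.28e-05) and 0.49 ± 0.11 (edgeR adjusted p = 0.000281), and both calls held in all the alternatives run.

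HOXB3, at chr17:48548870-48604912 on the minus strand, had 5.7, 4.62 and 4.86 CPM with DMSO and UTD cells and 8.66, 8.44 and 8.89 with tazemetostat. It had 6.28, 3.93 and 5.87 and 8.98, 9.87 and 8.86 CPM with CART19 cells. Tazemetostat libraries were above DMSO libraries throughout, and the log2 changes were 0.70 ± 0.19 (edgeR adjusted p = 0.00245) and 0.73 ± 0.18 (edgeR adjusted p = 0.00153). HOXB4 next to it had 11.8, 9.3 and 11.8 CPM with DMSO and 11.2, 8.95 and 9.85 with tazemetostat beside UTD cells. HOXB4 beside CART19 cells had 9.25, 12.5 and 10.96 CPM with DMSO and 11.98, 13.8 and 12.6 with tazemetostat. The groups overlapped in both co-cultures. Its log2 differences were -0.21 ± 0.15 (edgeR adjusted p = 0.288) and 0.16 ± 0.15 (edgeR adjusted p = 0.425), and neither passed. HOXA13 had 25, 10 and 18 counts with DMSO and UTD cells and 29, 36 and 28 with tazemetostat, and 11, 20 and 9 and 37, 31 and 43 counts with CART19 cells. The groups were apart in CPM in both co-cultures, and the log2 differences were 0.74 ± 0.42 (edgeR adjusted p = 0.175), which did not pass, and 1.45 ± 0.43 (edgeR adjusted p = 0.00642), which did. That they differ between the co-cultures was not shown: the interaction gave 0.71 ± 0.60 (edgeR adjusted p = 0.74). Of HOXA13's exon bases 1.69% lie opposite the noncoding gene HOTTIP.

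The other tested genes of SU-DHL-4 did not pass in either tazemetostat comparison. HOXA2, a gene that gives the second pharyngeal arch its identity, had 1.21, 1.45 and 1.27 CPM with DMSO and 1.48, 1.7 and 1.63 with tazemetostat beside UTD cells. HOXA2 beside CART19 cells had 1.55, 0.818 and 1.27 CPM with DMSO and 2.13, 1.69 and 1.83 with tazemetostat. Its groups were apart in both co-cultures. HOXA3 had 5.45, 7.65 and 6.47 CPM with DMSO and 6.93, 5.32 and 7.74 with tazemetostat beside UTD cells. HOXA3 beside CART19 cells had 7.7, 7.53 and 5.45 CPM with DMSO and 9.19, 7.79 and 6.7 with tazemetostat. The groups overlapped. HOXA4 had 1.21, 1.38 and 1.44 CPM with DMSO and 1.99, 2.04 and 1.21 with tazemetostat beside UTD cells. HOXA4 beside CART19 cells had 1.88, 1.69 and 1.09 CPM with DMSO and 1.73, 1.75 and 1.62 with tazemetostat. The groups overlapped too. HOXA5 had 4.24, 5.74 and 4.75 CPM with DMSO and 4.17, 5.49 and 3.02 with tazemetostat beside UTD cells. HOXA5 beside CART19 cells had 4.92, 3.49 and 3.15 CPM with DMSO and 5.48, 5.46 and 5.28 with tazemetostat. Its tazemetostat libraries overlapped DMSO with UTD cells and were above DMSO with CART19 cells, with log2 differences of -0.28 ± 0.23 (edgeR adjusted p = 0.37) and 0.43 ± 0.23 (edgeR adjusted p = 0.158). HOXA6 had 1.03, 2.31 and 1.49 CPM with DMSO and 1.48, 1.87 and 1.87 with tazemetostat beside UTD cells. HOXA6 beside CART19 cells had 1.75, 2.89 and 1.82 CPM with DMSO and 1.67, 1.36 and 0.879 with tazemetostat. With CART19 cells its tazemetostat libraries were below the DMSO libraries, with a log2 difference of -0.77 ± 0.39 (edgeR adjusted p = 0.12). HOXA7 had 5.63, 5.47 and 5.25 CPM with DMSO and 6.29, 7.14 and 5.74 with tazemetostat beside UTD cells. HOXA7 beside CART19 cells had 6.47, 4.36 and 5.39 CPM with DMSO and 4.41, 4.55 and 4.73 with tazemetostat. The log2 differences were 0.15 ± 0.20 (edgeR adjusted p = 0.595) and -0.30 ± 0.21 (edgeR adjusted p = 0.27). HOXB7 had 2.36, 1.52 and 1.71 CPM with DMSO and 2.18, 2.38 and 1.75 with tazemetostat beside UTD cells. HOXB7 beside CART19 cells had 1.68, 2.4 and 1.94 CPM with DMSO and 2.08, 2.53 and 2.84 with tazemetostat. The groups overlapped in both co-cultures.

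Among the low genes of SU-DHL-4, HOXA11 had 0, 3 and 1 counts with DMSO and UTD cells and 2, 9 and 8 with tazemetostat. With CART19 cells the counts were 4, 2 and 0 and 13, 1 and 0, where 1 library held nearly all counts of its group. HOXC13, a gene of hair and nail, had 0, 0 and 4 and 0, 0 and 0 counts with UTD cells and 2, 1 and 2 and 1, 0 and 0 with CART19 cells. HOXC11 had 11 counts in the 12 libraries, HOXA10 7, HOXB2 5, HOXC6 3, HOXD8 2, and HOXC8 and HOXC12 1 each. HOXA9, HOXB8 and HOXB9 had none in this line, as did HOXC9, HOXC10 and 8 of the 9 HOXD genes.

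**Figure D4:**
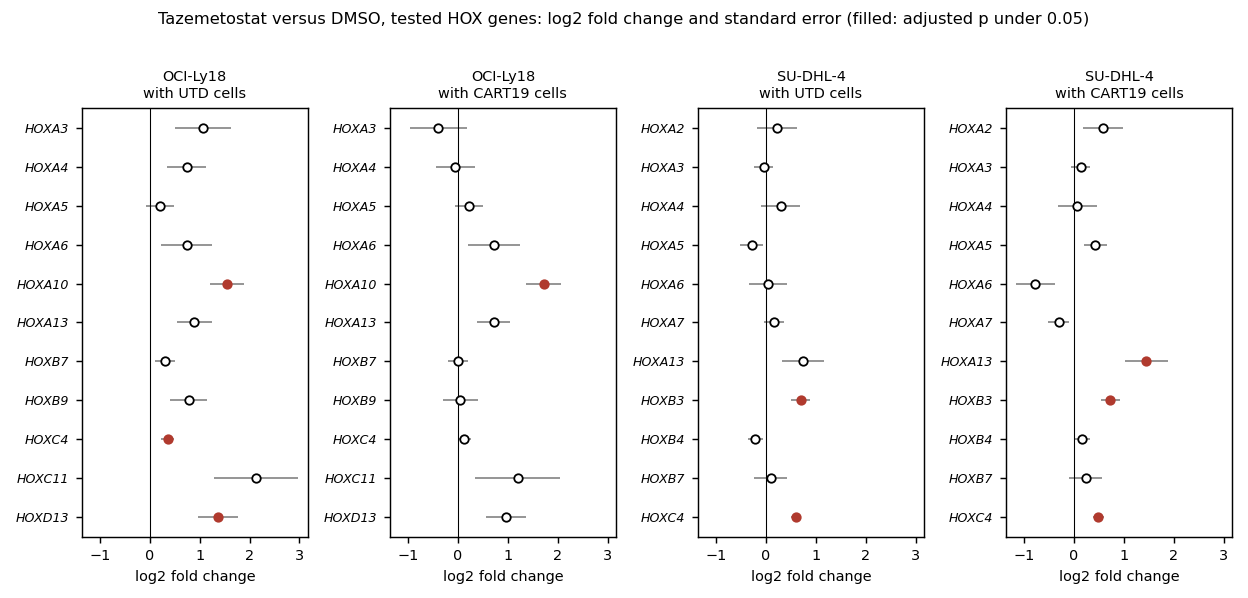
Log2 fold change with tazemetostat over DMSO for the 11 HOX genes described and tested in each line, in 4 panels (each line with UTD cells and with CART19 cells), with the standard error as a bar and filled points for an adjusted p under 0.05. Filled points are HOXA10, HOXC4 and HOXD13 in the first panel, HOXA10 in the second, HOXB3 and HOXC4 in the third, and the same pair with HOXA13 in the fourth.

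Whether the change with tazemetostat differs between the lines was tested for 15 HOX genes over all 24 libraries. With UTD cells 1 of the 15 was called by edgeR, HOXA7, beside 10.6% of all genes. Its call (adjusted p = 0.0104) compares the 0 and 12 counts of OCI-Ly18 with the high and nearly level counts of SU-DHL-4, and it held in all the alternatives run. HOXA7 did not pass the filter on low counts within OCI-Ly18 and entered this fit through its counts in SU-DHL-4. Its line difference, SU-DHL-4 minus OCI-Ly18, was -4.80 ± 1.30 with UTD cells. It was opposite in sign with CART19 cells, 1.74 ± 1.13 (edgeR adjusted p = 0.400). With CART19 cells none was called by edgeR, DESeq2 or limma voom, beside 10.1% of all genes by edgeR, and 2 had an unadjusted p under 0.05. For HOXC4 the difference, SU-DHL-4 minus OCI-Ly18, was 0.27 ± 0.17 (edgeR adjusted p = 0.386) with UTD cells and 0.38 ± 0.17 (edgeR adjusted p = 0.159) with CART19 cells. For HOXA13 it was -0.13 ± 0.53 (edgeR adjusted p = 0.977) and 0.75 ± 0.52 (edgeR adjusted p = 0.443), in the same order. HOXB3, HOXB4, HOXB9 and HOXD13 have no counts in one of the lines, so that their difference could not be estimated, and HOXA10 has too few in SU-DHL-4. The genes called in only one line are therefore not shown to respond differently.

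Set against UTD cells, CART19 cells came with 1 called gene among the HOX genes described, in OCI-Ly18. In OCI-Ly18 under DMSO HOXC4 was the one called of 11, beside 11% of all genes. It had 13.7, 13.6 and 15.5 CPM with UTD cells, 17.8, 19.8 and 18.9 with CART19 cells and a log2 change of 0.43 ± 0.13 (edgeR adjusted p = 0.0305). The groups did not overlap, but leaving out either the first or second library with UTD cells or any of the 3 with CART19 cells gave an adjusted p between 0.0591 and 0.124. HOXA10 gave -0.44 ± 0.38 (edgeR adjusted p = 0.557), HOXA13 0.42 ± 0.36 (edgeR adjusted p = 0.554) and HOXB9 0.64 ± 0.37 (edgeR adjusted p = 0.32), with groups that did not overlap and no call. Under tazemetostat edgeR called none of 11 in OCI-Ly18 beside 13.4% of all genes, with none at an unadjusted p under 0.05 and none by DESeq2 or limma voom. HOXA3, HOXA4 and HOXA10 were there lower with CART19 cells without overlap in CPM, as was HOXA7, which was too low for the test within this line. The fit of all 24 libraries called HOXA7, which had 12 counts with UTD cells and 1 with CART19 cells.

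In SU-DHL-4 under DMSO none of 11 was called by edgeR, beside 7.79% of all genes, none had an unadjusted p under 0.05, and none was called by DESeq2 or limma voom. HOXC4 gave 0.12 ± 0.11 (edgeR adjusted p = 0.657) there and HOXB3 0.08 ± 0.19 (edgeR adjusted p = 0.89). Under tazemetostat none of 11 was called by edgeR, beside 14.5% of all genes, or by DESeq2 or limma voom. Of these 11, 2 had an unadjusted p under 0.05. HOXB4 gave 0.38 ± 0.15 (edgeR adjusted p = 0.0895) and HOXA7 -0.47 ± 0.20 (edgeR adjusted p = 0.126). The interaction called none of 11 in SU-DHL-4 by edgeR, DESeq2 or limma voom, beside 0.895% of all genes by edgeR, and 1 had an unadjusted p under 0.05, HOXA5. The T cell marker sums given above, highest in a group where CD3D, CD3E and CD3G were at 0, differed between the co-cultures in OCI-Ly18. In SU-DHL-4 they overlapped under DMSO and were lower with CART19 cells under tazemetostat. Their part in these results was not tested.

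Of the TALE cofactors, which bind DNA with HOX proteins, PBX3 was called in every tazemetostat comparison. In OCI-Ly18 3 of 8 tested rose in each tazemetostat comparison and none fell. In SU-DHL-4 2 of 6 rose in each and none fell. Over all genes 24.3% and 21.6% were called with UTD and CART19 cells in OCI-Ly18, with 35.5% and 34.8% as the SU-DHL-4 shares, so the cofactors of SU-DHL-4 were called about as often as all genes, and with so few tested nothing is read from either count. PBX3 rose in all 4 comparisons, by 0.35 ± 0.10 (edgeR adjusted p = 0.00795) with UTD cells and 0.95 ± 0.10 (edgeR adjusted p = 7.45e-09) with CART19 cells in OCI-Ly18. In SU-DHL-4 the changes were 1.06 ± 0.12 (edgeR adjusted p = 1.03e-09) and 1.29 ± 0.12 (edgeR adjusted p = 2.26e-12). Its mean level went from 14.2 ± 2.56 to 36.3 ± 0.991 CPM in SU-DHL-4 with CART19 cells (SD, n = 3). MEIS1, which acts with HOXA9 in leukaemia, rose in OCI-Ly18 with UTD cells by 0.83 ± 0.28 (edgeR adjusted p = 0.0304) and in SU-DHL-4 with CART19 cells by 3.11 ± 0.75 (edgeR adjusted p = 0.000941). The latter went from 5 counts in 3 libraries to 48. Those 3 DMSO libraries were too low to pass the filter on low counts. MEIS1 thus passed it through other libraries, where it is higher, which limits what this change shows. The medians of the tested cofactors were 0.27 and 0.21 in OCI-Ly18, and in SU-DHL-4 0.18 and 0.01 on the log2 scale.

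Of the regulators of the clusters other than PRC2, the Trithorax side, CTCF and CDX, between 3 and 7 were called in each tazemetostat comparison. With UTD cells 1 rose and 2 fell of 13 tested in OCI-Ly18, and 3 rose and 3 fell of 12 in SU-DHL-4; with CART19 cells 2 rose and 5 fell, and 0 rose and 4 fell. Of all genes 24.3% and 35.5% were called with UTD cells, and 21.6% and 34.8% with CART19 cells; the list was near these shares in OCI-Ly18 with UTD cells and in SU-DHL-4 with CART19 cells, and above them in the other comparisons, which was not tested. PSIP1, which tethers the KMT2A complex to chromatin, fell in all 4 comparisons, with log2 changes of -0.25 ± 0.05 and -0.19 ± 0.05 in OCI-Ly18, and in SU-DHL-4 of -0.31 ± 0.05 and -0.30 ± 0.05 (edgeR adjusted p at most 0.00328). KDM6B, which removes the mark that EZH2 writes, rose with UTD cells by 0.26 ± 0.07 (edgeR adjusted p = 0.00534) in OCI-Ly18 and 0.39 ± 0.07 (edgeR adjusted p = 3.11e-05) in SU-DHL-4. 

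Of 24 noncoding genes inside the clusters 14 had a count, and few passed the filter. In OCI-Ly18 none of 6 tested was called in either tazemetostat comparison, and in SU-DHL-4 none of 3 with UTD cells and 1 of 3 with CART19 cells. The shares of all genes called were 24.3% and 21.6% in the first line, with 35.5% and 34.8% for the second. The gene called was HOXA-AS2, which overlaps HOXA3 and HOXA4 in antisense, with 10, 15 and 17 counts with DMSO and 54, 36 and 52 with tazemetostat and a log2 change of 1.71 ± 0.37 (edgeR adjusted p = 0.000266). HOTTIP, which is transcribed away from HOXA13 at the tail end of HOXA, had 0 counts in SU-DHL-4 with DMSO and UTD cells and 14, 3 and 6 with tazemetostat, at least 7.66-fold higher. With CART19 cells it had 3 counts with DMSO and 25 with tazemetostat, a ratio of 8.4 with an exact 95% counting interval from 2.56 to 43.5. HAGLR and HAGLROS, at the HOXD1 end of HOXD, had 212 and 183 counts with DMSO and UTD cells in OCI-Ly18 and 0 and 2 counts in SU-DHL-4, although HOXD1, HOXD4 and HOXD3 had at most 1 count over all libraries. These 3 genes share 58.1%, 80.5% and 74.1% of their exon bases with other genes, HAGLR among them for HOXD1 and HOXD3. Reads in shared bases may have been assigned elsewhere or left out, which was not tested. HOTAIR, in HOXC, had 18 counts in OCI-Ly18 with DMSO and UTD cells and 0 in SU-DHL-4, and HOXB-AS4 had 32 and 0. In SU-DHL-4 HOTAIR had 6 counts with tazemetostat and UTD cells. With CART19 cells it had 7, 8 and 0 counts with DMSO and 0, 1 and 0 with tazemetostat, 14.9-fold lower with a counting interval from 2.29 to 626, and the groups overlapped at 0.

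The homeobox relatives were mostly silent: 9 of 12 had no count, and 1 was tested in each line. MNX1, a motor neuron and pancreas gene, rose with tazemetostat in OCI-Ly18 by 0.73 ± 0.24 (edgeR adjusted p = 0.0239) with UTD cells and 0.93 ± 0.25 (edgeR adjusted p = 0.0077) with CART19 cells. In SU-DHL-4 it rose with CART19 cells by 1.15 ± 0.41 (edgeR adjusted p = 0.024), and with UTD cells it gave 0.33 ± 0.38 (edgeR adjusted p = 0.545). Of the genes that flank the clusters, 4 rose and 4 fell of 22 tested in OCI-Ly18 with UTD cells and 5 and 5 with CART19 cells, and 4 and 4 of 20 in each comparison in SU-DHL-4. The shares of all genes called were again 24.3%, 21.6%, 35.5% and 34.8%, in that order, and nothing particular to the flanking genes is read from these counts. CALCOCO1, beside HOXC, rose in all 4, by 0.54 ± 0.12 and 0.84 ± 0.12 in OCI-Ly18, and in SU-DHL-4 by 1.30 ± 0.16 and 1.24 ± 0.15 (edgeR adjusted p at most 0.000848). The median log2 change of the flanking genes lay between -0.03 and 0.13 in the 4 comparisons.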

How the data were processed

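RNA of 24 libraries was measured as counts per gene; the deposited table holds raw whole-number counts that the authors did not normalize, per the file headers and the values, and the gene length in base pairs. The labels name the NEBNext Ultra II kit; the submitters' processing notes name hg38 and DESeq2, while for the aligner, the counter and the strand setting no source used here gives a name. All 58735 gene IDs and their positions match GENCODE release 29, and 27 names that had turned into dates were restored from it. Every per-sample column was used; 0 were left out.

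Groups came from the labels, and replicate numbers from a sheet deposited with the counts. Levels in CPM used library totals scaled to 1000000, and per-kilobase values the deposited length. Genes were tested with edgeR 4.0.16 in R 4.3.3 (TMM, filterByExpr by group, robust quasi-likelihood F-test) over the whole table, with 12 libraries per line or all 24 across lines, Benjamini-Hochberg adjustment over all genes and a call at 0.05; standard errors are the log2 change over the root of F. The code was tested on simulated data. Alternatives were RLE and upper quartile scaling, other count filters, DESeq2 1.42.0, limma voom 3.58.1, a replicate block, other sets of libraries and each library left out. A 0 over a group was set to 3 counts for a lower bound. Gene values in every library are given for HOX genes called within a line or reaching a mean of 1 CPM in a group; of the other lists at most 4 called genes and the most abundant may be named. Of the lists, 1 HOX gene, 1 cofactor and 1 B cell marker are not reported here; they stayed in the fits and are left out of the counts and sums. The HOX genes and all lists were chosen with earlier results of these data known. Promoters came from RefSeq and were searched for 3 short motifs on both strands.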

Additional observations from a re-analysis of the deposited data

Results flagged for a closer look

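The change of HOXA7 with tazemetostat in the presence of UTD cells differed between the lines by a test of the difference itself (edgeR adjusted p = 0.0104 over all 24 libraries). In OCI-Ly18 it had 0 counts in the 3 DMSO libraries and 2, 4 and 6 with tazemetostat, at least 3.85-fold higher, while in SU-DHL-4 it had 93, 83 and 95 counts with DMSO and 98, 126 and 95 with tazemetostat, a log2 difference of 0.15 ± 0.20. HOXA7 did not pass the filter on low counts within OCI-Ly18 and entered the joint fit through SU-DHL-4, where it is high. With CART19 cells HOXA7 had 3, 2 and 0 counts with DMSO in OCI-Ly18 and 1, 0 and 0 with tazemetostat. The line difference there was 1.74 ± 1.13 (edgeR adjusted p = 0.400), opposite in sign to the -4.80 ± 1.30 with UTD cells, and was not called. The result rests on 12 counts in OCI-Ly18, and 62.5% of the exon bases of HOXA7 lie opposite HOXA-AS3, which had 23 counts with DMSO and 37 with tazemetostat in the same OCI-Ly18 groups; the part of antisense reads in the result was not tested.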

How the results depend on the processing

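No called HOX change reversed direction under an alternative. Changes that were not called were not checked for direction. Of the called HOX log2 changes recomputed under alternatives, 587 values kept their side of the threshold and 23 lost the call; of the counts of called HOX genes 292 stayed within 1.5 times and 9 did not. Without a filter on low counts the count for tazemetostat with CART19 cells in OCI-Ly18 was 2 in place of 1 (HOXC6 added). With all 24 libraries in 1 fit, HOXA7 made the count 1 in place of 0 in OCI-Ly18 for CART19 against UTD cells under tazemetostat and 1 in place of 0 for the interaction. Leaving out 1 library gave counts of 2 to 3 in OCI-Ly18 for tazemetostat with UTD cells, 1 to 2 with CART19 cells, and 0 to 1 for CART19 against UTD cells under DMSO. With TMM-scaled totals the HOXC sum of SU-DHL-4 with tazemetostat and UTD cells was 27.4 CPM in place of 28.2, and that line's sums over all clusters with UTD cells were 59.2 in place of 57.8 CPM with DMSO and 71.5 in place of 73.7 with tazemetostat; the other 37 sums moved by at most 1 SD. Same-numbered libraries did not deviate together (correlations of -0.0562 to 0.0435 in OCI-Ly18 and -0.0595 to 0.0375 in SU-DHL-4). Correlations over all tested genes hold counting error, so they show no pairing by number but cannot exclude one. With the replicate block the HOX genes called numbered 2 in place of 3 in OCI-Ly18 for tazemetostat with UTD cells (HOXC4 at an adjusted p of 0.0600) and 10 in place of 12 between the lines (HOXA5 at 0.104, HOXA6 at 0.156), and every other count of called HOX genes was the same. Depth limits the genes with few counts, where 1 count is worth up to 0.0676 CPM. The cause of these changes was not tested.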
